A study of Mus musculus with 6 samples.

Results

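The imprinted genes of the fetal growth network, 9 in number, were followed across the 3 count columns of the series: Meg3, Rian, Mirg, Dlk1, Peg3, Plagl1, Grb10, Mest and Ndn. They were chosen by symbol from a table of 55487 genes, and all 9 had counts in every column and passed the filter on low counts, which kept 15576 genes. In the GANT61 library the 3 noncoding RNAs Meg3, Rian and Mirg were lower than in DMSO by similar ratios (log2 -1.14 to -0.93). Peg3 stood 2.42-fold higher there, and its neighbours Zim1 and Usp29 had similar ratios. Under cyclopamine no member differed by 1.5-fold. The other 5 members differed less than 1.5-fold in every comparison.

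The cells were ventricular cardiomyocytes of wild-type mouse pups at postnatal day 1 or 2, depleted of fibroblasts by negative sorting against CD90. They were cultured for 12 h and then exposed for 48 h to DMSO, the solvent, to cyclopamine at 5 µg/ml or to GANT61 at 3 µM. Cyclopamine, a plant alkaloid, blocks Smoothened, and GANT61 blocks the GLI transcription factors further down the Hedgehog pathway. The doses are in different units and were not matched. The labels list 6 samples, 2 per group, whereas the table has 1 column per group, with nothing to say whether a column is a single culture or a pool. No difference between 2 columns therefore has a replicate check, and intervals cover counting error only. The columns held from 35461530 to 38966515 counts. All 8 cardiomyocyte markers were detected in each library, with a summed level of 61000 to 70450 CPM, counts scaled to the TMM-adjusted library size.

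An imprinted gene is expressed mainly from the allele inherited from one parent, through DNA methylation set in the egg or sperm. Many such genes act on fetal growth, are abundant before birth and are turned down in most organs during early postnatal life. Paternally expressed genes often promote growth and maternally expressed genes often restrain it. Meg3, Rian, Mirg and Grb10 are expressed from the maternal allele (Grb10 outside neurons), and Dlk1, Peg3, Plagl1, Mest and Ndn from the paternal allele. The counts do not separate the alleles.

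Meg3 and Peg3 are the members with the widest differences, and their promoter windows are shown because each lies beside neighbours with similar ratios. Both come from RefSeq on GRCm38.p6, and run from 250 bases before to 50 bases after the annotated start. The Meg3 window is chr12:109540746-109541045 on the plus strand, and the Peg3 window is chr7:6730370-6730669 on the minus strand. Capitals mark TGACGTCA, the palindromic cAMP response element, in both, and ACCACCC, the core of the GLI consensus, in Meg3.
Meg3: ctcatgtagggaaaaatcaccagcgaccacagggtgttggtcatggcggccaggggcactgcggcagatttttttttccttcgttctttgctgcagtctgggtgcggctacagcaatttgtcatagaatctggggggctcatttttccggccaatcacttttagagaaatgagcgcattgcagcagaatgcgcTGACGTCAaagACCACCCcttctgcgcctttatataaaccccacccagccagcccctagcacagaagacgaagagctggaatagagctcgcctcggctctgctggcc
Peg3: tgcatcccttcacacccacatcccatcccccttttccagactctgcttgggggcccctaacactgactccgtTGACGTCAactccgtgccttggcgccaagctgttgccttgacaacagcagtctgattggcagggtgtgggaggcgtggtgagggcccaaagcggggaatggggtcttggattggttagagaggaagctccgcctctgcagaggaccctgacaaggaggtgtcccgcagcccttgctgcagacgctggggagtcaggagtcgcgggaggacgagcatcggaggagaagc

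Both strands were searched. TGACGTCA starts at base 194 of the Meg3 window and at base 73 of the Peg3 window, and occurs in 1.79% of the 32851 RefSeq promoter windows of this length. ACCACCC starts at base 205 of the Meg3 window and occurs in 4.61% of all windows. It was also found in the Ndn window, in 1 of the 2 Grb10 windows and in a second Meg3 window at an alternative start, and not in the Peg3 window. TGCCGC, the hexamer bound by the imprint keeper ZFP57 when methylated, occurs in 11.6% of all windows. It was found in the first Meg3 window and in windows of Mest, Plagl1 and Grb10. CCATNTT, the core of the YY1 consensus, occurs in 16.1% of all windows and, among the members, in 1 Grb10 window. The Meg3 and Peg3 windows each hold 13 CG dinucleotides, against a median of 7, and 62.1% of all windows hold fewer. The Mirg window, 109734731 to 109735030, lies inside the annotated gene, which begins at 109729764, so that outer start was not searched. The Rian window holds 0 CG dinucleotides, the Mirg window 10, and neither contains TGACGTCA or ACCACCC. These matches describe the letters of the windows and are not evidence of binding.

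Levels between genes were compared as CPM per kb of annotated exon. In DMSO the order was Grb10 at 109.5, Plagl1 at 21.2, Ndn at 11.0, Mest at 10.7, Peg3 at 10.6, Rian at 1.35, Meg3 at 1.33, Dlk1 at 0.211 and Mirg at 0.145. Grb10 lay above 97.3% of the genes past the filter and Mirg above 8.5%. Neighbours whose exact Poisson intervals overlapped in DMSO were Ndn and Mest, Mest and Peg3, Rian and Meg3, and Dlk1 and Mirg. In GANT61 Peg3 stood in second place at 25.5 CPM per kb, above Plagl1 at 18.7, and its interval of 25.04 to 25.95 did not reach that of Plagl1. The lengths are unions over all annotated isoforms, so a gene with many unused exons is placed too low.

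**Figure D1:**
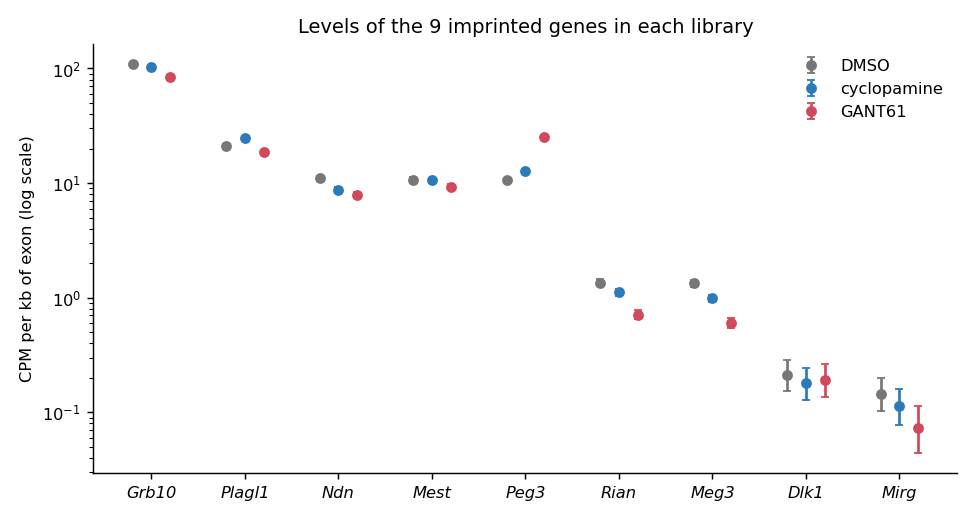
Level of each member as CPM per kb of annotated exon (log scale) in the DMSO, cyclopamine and GANT61 libraries, with exact 95% Poisson counting intervals. Peg3 stands at 10.6, 12.8 and 25.5, whereas Meg3 stands at 1.33, 0.987 and 0.605.

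Meg3, Rian and Mirg lie in this order on the plus strand of chromosome 12, between the paternally expressed genes Dlk1 and Dio3. Meg3 (ENSMUSG00000021268, GRCm38, 109541001 to 109571726) encodes a long noncoding RNA. The DMSO library held 888 Meg3 counts, the cyclopamine library 686 and the GANT61 library 392, the lowest of the 3. In CPM these were 24.1, 17.9 and 11.0. Its log2 ratio to DMSO was -0.43 in cyclopamine (95% counting interval -0.58 to -0.29) and -1.14 in GANT61 (-1.31 to -0.97).

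Rian (ENSMUSG00000097451, 109603940 to 109661716), the host transcript of a cluster of small nucleolar RNAs, had 909, 781 and 463 counts in the same order. Its log2 ratio was -0.28 (-0.42 to -0.14) in cyclopamine and -0.93 (-1.10 to -0.77) in GANT61. Mirg (ENSMUSG00000097391, 109729764 to 109749460), a host of microRNAs, had 39, 32 and 19 counts. For this gene the cyclopamine interval included no difference (-1.07 to 0.37), and the GANT61 ratio was -0.93 (-1.87 to -0.17).

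The size rule asks for a difference of at least 1.5-fold with a counting interval that excludes no difference. By this rule Meg3, Rian and Mirg were lower in GANT61 and Peg3 was higher. Over all genes past the filter 13.3% were lower and 8.4% higher by the same rule. In cyclopamine 0 of the 9 members were past it, against 4.1% of all genes higher and 7.27% lower. Raised to 2-fold, the rule took 0 members in cyclopamine, beside 6.11% of all genes, and Meg3 and Peg3 in GANT61, beside 11.7%.

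The 3 noncoding RNAs kept nearly the same proportions to each other in the 3 libraries. Meg3 made up 48.4% of their summed counts in DMSO (exact binomial interval 46.1 to 50.7), 45.8% in cyclopamine (43.2 to 48.3) and 44.9% in GANT61 (41.5 to 48.2). Mirg made up 2.12%, 2.13% and 2.17%. The intervals of each gene's share overlapped among all 3 libraries. Summed, they had 1836, 1499 and 874 counts, with a log2 ratio to DMSO of -0.35 (-0.45 to -0.25) in cyclopamine and -1.03 (-1.15 to -0.91) in GANT61.

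Dlk1 (ENSMUSG00000040856, 109452823 to 109463336), at the start of the domain, encodes a membrane protein with EGF-like repeats that acts on Notch signalling and adipocyte differentiation. The DMSO library held 44 Dlk1 counts, and both inhibitor libraries held 39. Its intervals, -0.90 to 0.42 in cyclopamine and -0.79 to 0.52 in GANT61, included no difference, and at this depth a change of the size seen for Meg3 lies outside the GANT61 interval. Of 116 genes of the table annotated from Dlk1 to Dio3, 11 had any count and 5 reached 10 counts, the 4 members and the processed pseudogene Gm3379 with 23, 27 and 4 counts. The 90 microRNA and small nucleolar RNA genes among them had 1, 1 and 2 counts in all, in libraries made from messenger RNA. Their products are therefore not measured here.

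Peg3 (ENSMUSG00000002265, chromosome 7, 6703892 to 6730431, minus strand) encodes a large zinc finger protein known for roles in maternal behaviour, in muscle stem cells and in p53-linked cell death. The DMSO library held 5175 Peg3 counts, the cyclopamine library 6528 and the GANT61 library 12157 (141, 170 and 340 CPM), so the GANT61 library stood apart and cyclopamine lay nearer to DMSO. The log2 ratio was 0.27 (0.22 to 0.33) in cyclopamine and 1.27 (1.23 to 1.32) in GANT61. Set against cyclopamine, GANT61 was higher by 1.00 (0.96 to 1.04). None of the 50-base windows of its longest annotated transcript occurs in another annotated gene, and its other exons were not searched.

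Zim1 and Usp29, which flank Peg3, had similar ratios in GANT61. Zim1, a maternally expressed zinc finger gene 7442 bases beyond the end of Peg3, had 1840, 2091 and 4136 counts, at 0.12 (0.03 to 0.21) with cyclopamine and 1.21 (1.13 to 1.29) with GANT61. Usp29, a paternally expressed gene for a ubiquitin-specific protease that starts 147 bases from Peg3 on the other strand, had 67, 80 and 143 counts, and was at 1.11 (0.71 to 1.58) in GANT61. Peg3 made up 73.1% of the summed counts of these genes in DMSO (72.02 to 74.10), 75.0% in cyclopamine (74.12 to 75.95) and 74.0% in GANT61 (73.29 to 74.64). The DMSO and cyclopamine intervals did not overlap, and neither did the cyclopamine ratio intervals of Peg3 and Zim1. The remaining gene with at least 10 counts within 250 kb was the pseudogene Zfp264, with 20, 33 and 12 counts and intervals that included no difference from DMSO. This neighbourhood was examined after the values of Peg3 were known.

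**Figure D2:**
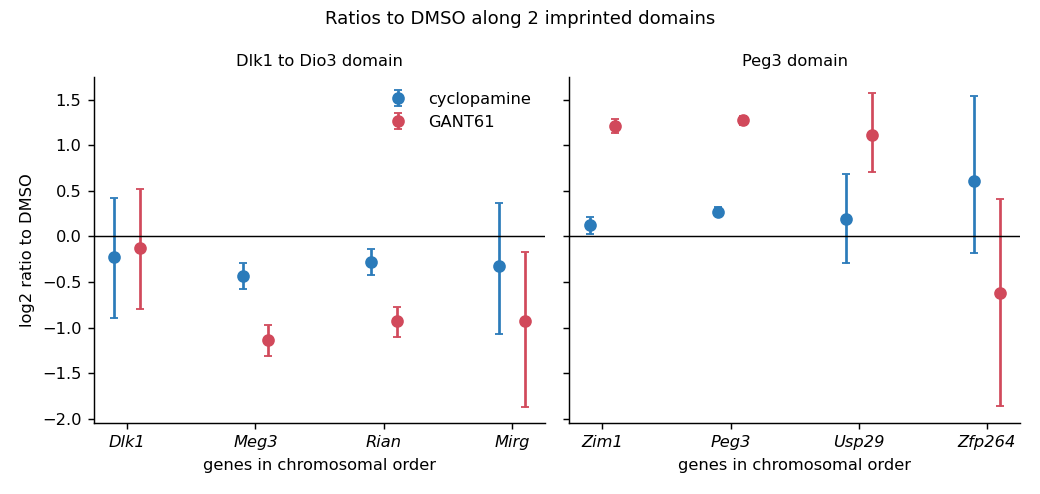
Log2 ratio to DMSO for the genes of the Dlk1 to Dio3 and Peg3 domains, in chromosomal order, with exact 95% counting intervals, for the cyclopamine and GANT61 libraries. Meg3, Rian and Mirg lie from -1.14 to -0.93 in GANT61, and Zim1, Peg3 and Usp29 from 1.11 to 1.27.

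Plagl1 (ENSMUSG00000019817, chromosome 10, 13060504 to 13131694) encodes a zinc finger transcription factor that restrains the cell cycle and regulates other imprinted genes. Its counts were 6107, 7456 and 5223, highest in cyclopamine and lowest in GANT61. The log2 ratios, 0.23 (0.18 to 0.28) in cyclopamine and -0.19 (-0.24 to -0.13) in GANT61, lay on opposite sides of DMSO. Grb10 (ENSMUSG00000020176, chromosome 11, 11930508 to 12038683) encodes an adaptor that binds the insulin and IGF1 receptors and limits growth. It was the most abundant member, with 36639, 35748 and 27340 counts, and was at -0.10 (-0.12 to -0.08) with cyclopamine and -0.38 (-0.40 to -0.36) with GANT61.

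Ndn (ENSMUSG00000033585, chromosome 7, 62346569 to 62350262) encodes necdin, a growth suppressor of the MAGE family, from a single exon. It had 1494, 1237 and 1039 counts, with log2 ratios of -0.33 (-0.44 to -0.22) and -0.48 (-0.60 to -0.37). Mest (ENSMUSG00000051855, chromosome 6, 30723547 to 30748465) encodes a protein with a hydrolase fold. With 1559, 1597 and 1315 counts it was at -0.03 (-0.13 to 0.07) with cyclopamine and -0.20 (-0.31 to -0.10) with GANT61. Mest shares 23.1% of its exonic bases with Copg2 on the other strand, which had log2 ratios of -0.05 and -0.20, and without a stated strand setting their reads cannot be told apart there. Meg3 shares 6.79% of its exonic bases with an antisense gene model not analysed here.

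**Figure D3:**
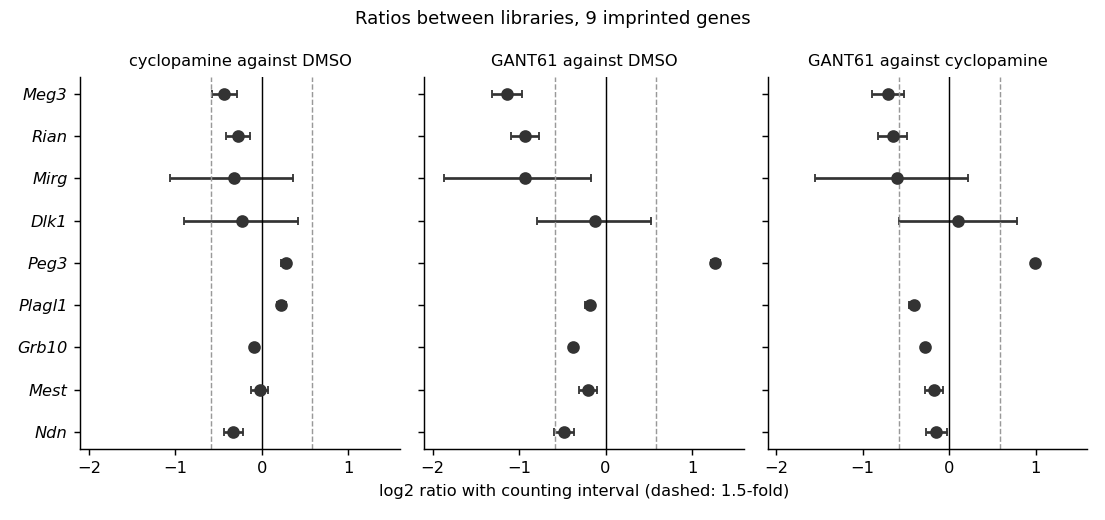
Log2 ratio between libraries for the 9 members (points) with exact 95% counting intervals (bars), in 3 comparisons, with dashed lines at 1.5-fold. Meg3, Rian, Mirg and Peg3 lie beyond the lines in GANT61 against DMSO, and 0 members do in cyclopamine against DMSO.

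In cyclopamine 7 members were below 0 and in GANT61 8 were, beside 50.7% and 50.8% of all genes past the filter. The median log2 ratio of the members was -0.22 in cyclopamine and -0.38 in GANT61, and that of all genes was -0.004 and -0.007. All 4 maternally expressed members were below 0 under both compounds, although the cyclopamine interval of Mirg included no difference. Meg3, Rian and Mirg are neighbours in the same domain and kept nearly the same proportions. They are therefore not separate observations in these counts and medians. Of the 5 paternally expressed members Peg3 and Plagl1 were above 0 in cyclopamine and Peg3 in GANT61. The comparisons share the DMSO library, so its own deviations enter each of them.

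Compared directly, the GANT61 library was past the size rule against cyclopamine for 3 members. Meg3 was lower at -0.70 (-0.89 to -0.52), Rian was lower at -0.65 (-0.82 to -0.48) and Peg3 was higher. Over all genes 8.83% were lower and 6.16% higher. At 2-fold 0 members and 7.33% of all genes were past it. Mirg was at -0.60 with an interval of -1.55 to 0.21. The interval for Plagl1 (-0.46 to -0.36) excluded both no difference and 1.5-fold.

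Taking both inhibitor libraries as 1 arm leaves 1 residual degree of freedom, with the spread between the compounds as error. edgeR's quasi-likelihood test with Benjamini-Hochberg adjustment then called 0 of 9 members and 0 of 15576 genes (0.0%). At an unadjusted p under 0.05 it found 977 genes (6.27%) and 1 member, Meg3, whose log2 ratio was -0.74 with an adjusted p of 0.795 (0.122 to 0.886 over the alternatives). DESeq2's Wald test called 142 genes and limma-voom 0, and both called 0 members. Peg3 was at 0.86, with an adjusted p of 0.869 by edgeR. Without the filter on low counts that p was 0.00298, among 482 genes called, and over all alternatives it ran from there to 0.9998. In the authors' deposited tables, made at 1.2-fold on unscaled counts, Peg3 is among the 6612 higher genes and Meg3, Rian, Mirg and Ndn among the 6461 lower genes. These lists hold 29.5% and 28.8% of the 22450 genes with any count.

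A further 10 genes have been described in mouse as partners of the members in 1 imprinted network. By size, GANT61 had 2 of them higher and 2 lower, with a median log2 ratio of -0.19, and cyclopamine had 1 higher and 1 lower, with a median of 0.01. Over all genes past the filter 8.4% were higher and 13.3% lower in GANT61, and 4.1% and 7.27% in cyclopamine. H19, a maternally expressed noncoding RNA, had 1879, 1120 and 1104 counts and was lower in cyclopamine (-0.81, -0.92 to -0.70) and in GANT61 (-0.73, -0.84 to -0.62). Its neighbour Igf2, a fetal growth factor, had 129, 149 and 74 counts and was lower in GANT61 at -0.75 (-1.19 to -0.34). Igf2r, which clears IGF2, was higher in GANT61 at 0.60 (0.57 to 0.62). Dcn, which encodes the matrix proteoglycan decorin, was higher in both, at 0.78 (0.55 to 1.02) and 1.04 (0.81 to 1.28).

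The other 6 partners were not past the rule in either comparison against DMSO. Cdkn1c, which encodes the CDK inhibitor p57, was at 0.23 and 0.53. Sgce, an epsilon-sarcoglycan gene, was at -0.03 and -0.45, the amino acid transporter gene Slc38a4 at 0.01 and -0.26, and Gnas, which encodes a stimulatory G protein subunit, at 0.01 and -0.12. Gatm, of creatine synthesis, and Nnat, which encodes neuronatin, had at most 37 counts, with intervals that included no difference.

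Of 57 other imprinted genes 39 passed the filter. The counts do not show which of them are imprinted in these cells. By size, GANT61 had 6 higher and 6 lower, with a median of -0.17, and cyclopamine had 0 higher and 1 lower, with a median of -0.05. The shares over all genes were 8.4% higher and 13.3% lower in GANT61, and 4.1% and 7.27% in cyclopamine. Beside Zim1, the genes with the largest ratios were lower ones. Begain had 16, 15 and 0 counts, a ratio of 5.19-fold lower in GANT61 with its 0 set to a floor of 3 counts per library, and a counting interval that ends at a log2 ratio of -1.91. Asb4, which encodes an ankyrin repeat and SOCS box protein, had 340, 217 and 120 counts and was lower under both compounds, at -0.70 (-0.96 to -0.46) and -1.45 (-1.77 to -1.16). Peg12 had 36, 27 and 12 counts and was at -1.40 (-2.62 to -0.57) in GANT61.

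**Figure D4:**
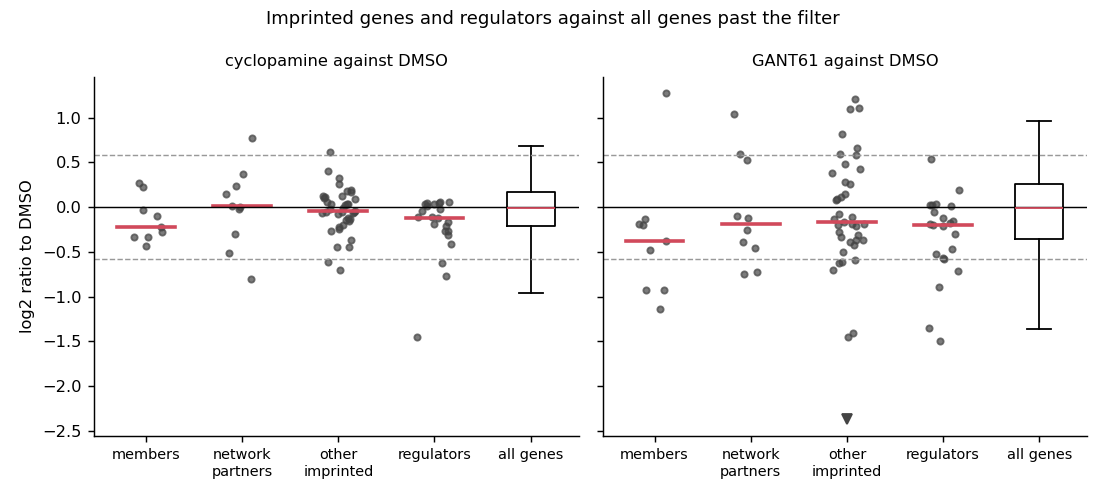
Log2 ratio to DMSO for the members, the network partners, the other imprinted genes and the regulators of imprinting (points, with red median lines), beside all 15576 genes past the filter (box at quartiles, whiskers at the 5 and 95 percentiles), with dashed lines at 1.5-fold. The triangle is Begain with its 0 counts set to 3. The medians in GANT61 are -0.38, -0.19, -0.17 and -0.20.

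Genes that set, keep or erase imprints were read next. Of 25, 22 passed the filter, and by size GANT61 had 0 higher and 4 lower, cyclopamine 0 higher and 3 lower (medians -0.20 and -0.12). Among all genes 8.4% were higher and 13.3% lower in GANT61, and 4.1% and 7.27% in cyclopamine. Tet1, a dioxygenase that oxidises methylated cytosine, had 1701, 1427 and 586 counts, at -0.31 (-0.42 to -0.21) and -1.49 (-1.63 to -1.36). Uhrf1, which brings DNMT1 to replicating DNA, was lower under both, at -1.45 (-1.62 to -1.29) and -1.35 (-1.53 to -1.19). The chromatin remodeller gene Hells was at -0.78 and -0.89, and the maintenance methyltransferase gene Dnmt1 at -0.27 and -0.71. Zfp57 was lower by size in cyclopamine, at -0.62 (-0.95 to -0.32), and was at -0.20 (-0.50 to 0.09) in GANT61. Uhrf1 and Hells are also abundant in dividing cells, and the 8 proliferation markers were all lower under both compounds, with a summed level of 198, 64.1 and 41.1 CPM. The part of proliferation in these ratios was not tested.

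Genes whose products bind those of the members, or lie downstream of them, went both ways. Of 24, GANT61 had 5 higher and 6 lower by size (median 0.01), and cyclopamine had 0 higher and 3 lower (median 0.01). The same rule took 8.4% of all genes higher and 13.3% lower in GANT61, and 4.1% and 7.27% in cyclopamine. Adcyap1r1, a receptor gene regulated by PLAGL1, had 60, 43 and 247 counts and was at 2.05 (1.67 to 2.51) in GANT61. Of the Notch genes, Heyl, a target with 70, 35 and 20 counts, was lower under both, at -1.02 (-1.69 to -0.46) and -1.67 (-2.56 to -1.03). Hey1, another target, had 17, 3 and 1 counts, with intervals of -4.98 to -0.77 and -9.43 to -1.37. The targets Hes1 (-0.30 and -0.32) and Hey2 (-0.002 and -0.46) were within 1.5-fold under both. Among the receptor genes, Notch3 was higher in GANT61 at 1.21 (0.82 to 1.65) and Notch4 lower at -0.74 (-1.31 to -0.23). Notch1 and Notch2 were within 1.5-fold there, at 0.24 and 0.18. Insr and Igf1r, which encode receptors that GRB10 binds, were within 1.5-fold, at 0.25 and 0.34 in GANT61. Bax and Mdm2, p53 targets linked to PEG3 function and named after their values were seen, were higher in GANT61 at 1.01 (0.92 to 1.10) and 1.06 (1.01 to 1.11). Siah1b, of the same list, was lower there at -0.61 (-0.92 to -0.31), and Siah1a was at -0.05 (-0.23 to 0.13).

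Marker genes of other cells also differed between the libraries. In these bulk counts fewer cells of a type and less RNA per cell cannot be told apart. The counts of markers are to be read against 8.4% of all genes higher and 13.3% lower in GANT61. In cyclopamine these shares were 4.1% and 7.27%. Of 8 mesothelial and epicardial markers, 7 were higher by size in GANT61 and 3 in cyclopamine, and 0 of them were at 0 counts. Their summed level was 76.6, 79.3 and 151 CPM, of which Krt19, the marker not past the rule, made up 62.3, 60.6 and 87.0. The median log2 ratio of the 8 was 0.21 in cyclopamine and 2.35 in GANT61. Upk1b, which encodes uroplakin 1b, had 53, 117 and 397 counts, at 1.05 and 2.90 (2.53 to 3.39). All 10 fibroblast markers were detected in each library after the sort, among them Thy1, which encodes CD90, with 3050, 2834 and 1207 counts. Of the 10, 1 was higher and 4 were lower in GANT61, with a sum of 1401, 1071 and 952 CPM, and this list shares Dcn with the network partners. Endothelial markers, 2 of 8 lower in GANT61, summed to 92.0, 87.1 and 75.2 CPM. Smooth muscle and pericyte markers, 3 of 8 lower, summed to 2646, 1684 and 1592 CPM, with Rgs5 at 0 in cyclopamine. Macrophage markers, 1 higher and 2 lower of 8, summed to 10.9, 16.0 and 8.58 CPM. The part of these cells in the ratios of Peg3, Meg3, Rian and Mirg was not tested.

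Genes with the most similar pair of ratios to DMSO were sought for Meg3 and Peg3 among 9773 named genes with a mean of at least 5 CPM. For Meg3 they were the nucleoside transporter gene Slc29a1 (-0.44 and -1.13), the Wnt receptor gene Fzd8 (-0.42 and -1.15) and the potassium channel gene Kcnh2 (-0.43 and -1.16), within a Euclidean distance of 0.024. For Peg3 they were the splicing regulator gene Srrm4 (0.27 and 1.25), the semaphorin gene Sema3e (0.31 and 1.30) and the kinase gene Plk2 (0.29 and 1.33), within 0.0608. The likeness rests on 2 ratios that share a DMSO library.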

How the data were processed

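The authors deposited raw read counts per gene, whole numbers with no normalization per the file headers, in 1 column per group. The submitters' processing notes name Trimmomatic 0.33, FastQC, HISAT2 2.1.0, featureCounts and GRCm38. Neither the annotation nor the strand setting is given in the sources used here. Gene IDs were matched to GENCODE M21 (GRCm38) for 55141 of 55487 genes.

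The members and gene lists were chosen with earlier results of these data known. edgeR 4.0.16 filtered genes (filterByExpr) and scaled libraries (TMM). CPM use these scaled sizes. Log2 ratios used a prior count of 2, with exact conditional binomial 95% intervals. With 1 column per group no pairwise test was made. The 2-arm fit used edgeR's robust quasi-likelihood test with Benjamini-Hochberg adjustment over 15576 genes, with DESeq2 1.42.0 and limma 3.58.1 as alternatives. Named genes were the members, network partners and domain neighbours with at least 10 counts, up to 4 members per other list by the largest ratio, and the 3 most similar genes for 2 members. Other names were chosen after their values were seen.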

Additional observations from a re-analysis of the deposited data

Results flagged for a closer look

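Plagl1 stood on opposite sides of DMSO under the 2 compounds, with a log2 ratio of 0.23 in cyclopamine and -0.19 in GANT61. Each ratio rests on 1 library per group and neither reached 1.5-fold. The difference between them, -0.41 for GANT61 against cyclopamine, was not tested against replicate spread.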

How the results depend on the processing

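Over the scalings, filters and prior counts tried, each pairwise log2 ratio of a member kept its sign, with Meg3 from -1.16 to -1.12 and Peg3 from 1.25 to 1.28 in GANT61. No scaling moved the median of all genes by over 0.1. The filter of 5 CPM in 2 columns drops Dlk1 and Mirg. The counts depend on the fold asked for. At 1.2-fold 4 members passed in cyclopamine (24.6% of all genes), 6 in GANT61 against DMSO (42.5%) and 5 in GANT61 against cyclopamine (33.5%). The other imprinted genes then had 6 and 24 calls in cyclopamine and GANT61, the regulators 7 and 9, and the partners of the imprinted products 12 and 18, to be read against the same 24.6% and 42.5%. At 2-fold 2 members passed in GANT61 against DMSO (11.7%) and 0 against cyclopamine (7.33%). The network partners then had 0 calls in cyclopamine and 1 in GANT61, the other imprinted genes 0 and 6, and the regulators 1 and 2. These are to be read against 6.11% of all genes in cyclopamine and 11.7% in GANT61. The filter of 5 CPM in 2 columns kept 10084 genes, with fewer genes tested in the lists. The network partners then had 2 calls in GANT61, and the partners of the products 0 in cyclopamine and 3 in GANT61. The share of all genes called under this filter was not computed, so these counts have no background to be read against. In the 2-arm fit 1 member, Peg3, was called without a filter (adjusted p 0.00298 by edgeR, among 482 genes), against 0 otherwise, and its adjusted p ranged up to 0.9998. That of Meg3 ranged from 0.122 to 0.886. The fit without a filter tested 22450 genes, and the main fit 15576. The cause of these shifts was not tested. With library sizes alone that fit called 18 genes. No paired analysis was possible because the table holds 1 column per group with no replicate number, and for the same reason no replicate could be left out. Depth limits Mirg and Dlk1, with at most 44 counts.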

Other observations

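Airn, the paternally expressed noncoding RNA that overlaps Igf2r in antisense, had 381, 499 and 519 counts in DMSO, cyclopamine and GANT61, with log2 ratios of 0.33 (0.13 to 0.52) and 0.48 (0.29 to 0.68), beside 0.37 and 0.60 for Igf2r. Without a stated strand setting their reads cannot be told apart where they overlap. Among the other imprinted genes, Htr2a, a serotonin receptor gene, had 317, 439 and 664 counts and was at 1.10 (0.91 to 1.30) in GANT61. Ddc, which encodes a decarboxylase of amine synthesis and lies beside Grb10, had 3064, 3271 and 1830 counts, at 0.03 (-0.04 to 0.10) and -0.70 (-0.79 to -0.62). These genes were picked after their values were seen.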
